A study of Mus musculus with 30 samples.

Results

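Short RNA of the cortex was compared between 5xFAD (AD) mice and wildtype (WT) mice in the 16 PANDORA-seq libraries of the series, 8 labelled AD and 8 labelled WT, out of 30 libraries in all. The comparison took reads of 15 to 40 nt whose whole sequence matched a GENCODE transcript exactly in the sense direction, summed per gene and set against all reads of 15 to 40 nt in the library. All mice were 6 months old and of the C57BL/6J background, and the AD mice were hemizygous 5xFAD animals of both sexes with WT littermates as controls. The 5xFAD line carries human APP with familial Alzheimer's disease mutations, driven by the neuronal Thy1 promoter, so transgene RNA is made mainly in neurons. In every library the gel-purified small RNA was treated with AlkB and T4PNK before cDNA was made. The labels name the tissue as cortex and the study's methods as prefrontal cortex, and p-values measure the spread between libraries of 1 genotype.

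Most RNA of this size is not miRNA. Transfer RNA, ribosomal RNA, Y RNA and other structured RNAs are cut into fragments, some of which carry chemical groups at their ends or on their bases that block ordinary library preparation, and PANDORA-seq removes many of these groups with T4PNK and AlkB. Messenger RNA leaves short pieces as well when the long transcript is broken down, and how closely their number follows the level of that transcript was not measured here. In 5xFAD cortex, amyloid plaques are surrounded by reactive astrocytes and by microglia that switch on genes such as Cst7 and Itgax.

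The sequences below come from the most-read genes of 4 RNA classes and from 2 called miRNA genes. The first 3 were the most frequent sequences of a mitochondrial tRNA gene, a Y RNA gene and a 5S rRNA gene and are printed as deposited. The last 3 are mature miRNAs from RefSeq (GRCm38.p6) with the seed, bases 2 to 8, in capitals.
mt-Ts2 fragment, chrM:11613-11652 (GRCm38, plus strand): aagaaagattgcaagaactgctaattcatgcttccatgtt
Rny1 fragment, chr6:47788150-47788180 (GRCm38, minus strand): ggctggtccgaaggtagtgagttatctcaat
n-R5s136 fragment, chr8:123599861-123599895 (GRCm38, minus strand): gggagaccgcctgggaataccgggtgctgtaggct
mmu-let-7c-5p of Mirlet7c-1, chr16:77599672-77599693 (plus strand): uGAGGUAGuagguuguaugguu
mmu-miR-206-3p, chr1:20679055-20679076 (plus strand): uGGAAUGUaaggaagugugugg
mmu-miR-292a-5p, chr7:3219200-3219221 (plus strand): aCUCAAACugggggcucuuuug
The 3 miRNAs have different seeds. Of the reads counted for Mir206, 99.8% began at the same base as miR-206-3p, and of those for Mir292, 94.4% began at the same base as miR-292a-5p.

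The libraries held 44422513 to 94872662 reads of 15 to 40 nt. The depth did not differ between the genotypes beyond its spread (two-sided exact permutation test, p = 0.469). Between 14.5% and 34.5% of these reads matched a transcript, and by exact permutation test the mean of AD mice, 25.9% ± 5.62 (SD, n = 8), did not differ from that of WT mice, 27.8% ± 4.69 (SD, n = 8), past the threshold (p = 0.496). Of the matched reads, 19.9% to 37.9% matched more than 1 gene and were given to the small RNA gene first. Reads of 41 to 45 nt, which this comparison leaves out, made up 16.5% to 27.4% of all deposited reads in WT libraries and 5.08% to 17.3% in AD libraries (exact permutation test, p = 0.0003108). Only AD replicate 6 lay inside the WT range, so the upper length limit cut off more of a WT library than of an AD library. Its part in the results below was not tested, beyond the fits that kept reads of up to 45 nt.

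Transgene reads were examined first, because they check the genotype labels. Reads of 26 to 40 nt that lay 1 or 2 mismatches from mouse App were counted as a percentage of all reads within 2 mismatches, since a human transcript differs from the mouse one at many bases. In 7 of the 8 WT libraries the App percentage was 10.8% to 18.8%. AD replicates 2, 3, 5 and 6 reached 36.8%, 39.0%, 34.8% and 30.3%, and AD replicates 1, 7 and 8 reached 35.7%, 22.2% and 23.3%. These 7 AD libraries lay above every WT library but the library labelled WT replicate 1. AD replicate 4, at 14.3%, lay inside the range of the other WT libraries.

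In the library labelled WT replicate 1 the App reads went against the label. Its App percentage was 45.1% (exact 95% confidence interval 44.2 to 45.999%, counting error only), the highest of the 16 libraries. The 4 comparison genes, of neurons or of the App family (Aplp1, Aplp2, Snap25 and Camk2a), gave 8.58% to 10.7% in the same library. Thy1, the gene whose promoter drives the transgene, stood at 364 RPM (reads per 1000000 reads of 15 to 40 nt) there and at 19.6 to 109 RPM in the other 7 WT libraries.

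The ratio of Thy1 to Snap25, a synaptic vesicle fusion gene used here as a neuronal scale, gave a further check of the labels. It was 0.163 to 0.275 in the other 7 WT libraries and 0.870 in the library labelled WT replicate 1. In AD replicates 2, 3, 5 and 6 it was 0.626 to 1.197, and in AD replicate 8 it was 0.366, all above the other WT libraries. AD replicates 1, 4 and 7, at 0.262, 0.245 and 0.255, lay inside the range of those WT libraries. In AD replicate 1, whose App percentage was high, the 4 comparison genes were high as well, at 15.0% to 45.1%. The share of reads of 41 to 45 nt, by contrast, followed the labels in these libraries. It was 24.6% in the library labelled WT replicate 1, above every AD library, and 13.1%, 7.16% and 9.75% in AD replicates 1, 4 and 7, below every WT library. Gfap, an astrocyte gene described with the lists, ran with the labels in AD replicates 1, 4 and 7, at 11.4, 8.34 and 8.83 RPM against at most 6.55 RPM in the other 7 WT libraries, and against the label in the library labelled WT replicate 1, at 22.4 RPM. Groups were kept as labelled throughout. Over the labelled groups the App percentage was 18.4% ± 11.2 (SD, n = 8) for WT and 29.5% ± 8.72 (SD, n = 8) for AD labels (p = 0.0474 by two-sided exact permutation). Results are given with all 16 libraries. Counts of called genes, some list medians and some named genes are also given without the library labelled WT replicate 1 and AD replicates 1, 4 and 7, a choice made from the Thy1 to Snap25 ratio after the values were seen.

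**Figure D1:**
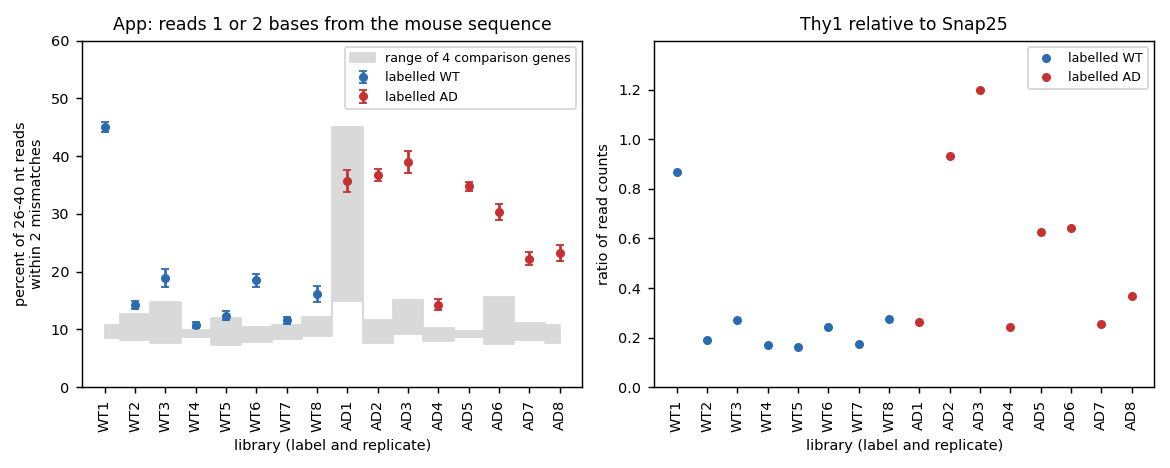
Left, percentage of 26 to 40 nt reads within 2 mismatches of mouse App that carried 1 or 2 mismatches, for each library, with exact 95% confidence intervals; the grey band is the range of 4 comparison genes in the same library. Right, ratio of Thy1 to Snap25 reads in each library. The library labelled WT replicate 1 and AD replicates 2, 3, 5, 6 and 8 stand above the other WT libraries in both panels, and AD replicate 4 does in neither.

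The tissue also differed between libraries. Markers of cerebellum, striatum, olfactory bulb and cortical projection neurons, listed after the values were seen, were summed per library with no test. The 12 cerebellar genes, among them Cbln1 and Pcp2 of granule and Purkinje cells, summed to 270 RPM in AD replicate 1, 106 RPM in AD replicate 6 and 67.7 RPM in AD replicate 7, and to at most 15.0 RPM in each of the other 13 libraries. The 12 olfactory bulb genes and miRNAs reached 908 RPM in WT replicate 2, 349 RPM in WT replicate 3 and 148 RPM in AD replicate 7, and at most 58.6 RPM elsewhere. The 12 striatal genes, among them the dopamine receptor gene Drd2 and the adenosine receptor gene Adora2a, ranged from 9.50 to 98.3 RPM in WT and from 7.21 to 84.8 RPM in AD libraries. The 9 genes of cortical projection neurons ranged from 71.8 to 387 RPM in WT and from 42.2 to 328 RPM in AD libraries, so cortical markers were present in every library. Markers of other regions were thus unequal between libraries within each genotype. In bulk tissue, fewer cells of a type and less RNA per cell cannot be told apart.

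**Figure D2:**
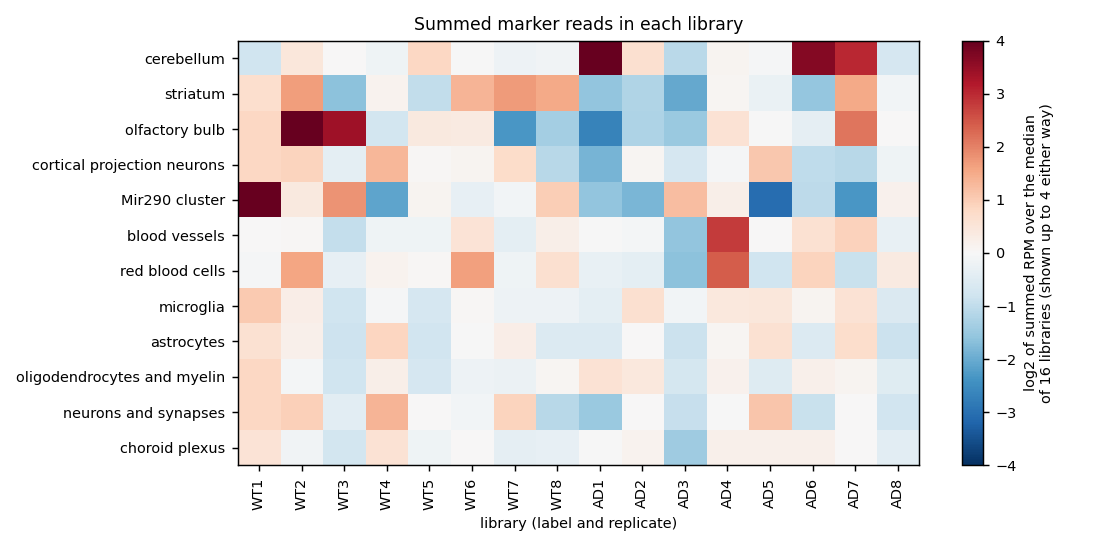
Summed RPM of 12 marker lists in each of the 16 libraries, as the log2 ratio to the median over all libraries, shown up to 4 in either direction. Cerebellar markers stand out in AD replicates 1, 6 and 7, olfactory bulb markers in WT replicates 2 and 3, vessel and red blood cell markers in AD replicate 4, and the Mir290 cluster in the library labelled WT replicate 1.

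Across the 13 RNA classes, 0 differed in their share of the reads between AD and WT mice past the threshold (two-sided exact permutation tests, adjusted p from 0.958 to 0.990 over the 13 classes, where the smallest p that 12870 splits allow is 0.000155). Fragments of nuclear mRNA were the largest matched class, at 12.7% ± 3.99 of reads in WT and 10.1% ± 3.21 in AD mice (SD, n = 8 each, p = 0.170 by exact permutation). The groups overlapped in all 13 classes. miRNA genes followed with 3.17% ± 0.962 in WT and 3.62% ± 1.55 in AD mice. The other small RNA class, which holds Y RNA and 7SK, took 2.57% ± 0.329 and 2.78% ± 1.13, the 45S rRNA unit 2.48% ± 0.514 and 2.86% ± 1.30, and the 5S rRNA genes 2.10% ± 0.690 and 1.93% ± 0.661 in WT and AD mice.

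Mitochondrial RNA varied widely between libraries of the same genotype. The mitochondrial tRNA class, the source of mitochondrial tsRNAs, took 2.07% ± 1.23 of the reads in WT and 1.76% ± 1.07 in AD mice, with a 6.37-fold range over the 16 libraries. The 2 mitochondrial rRNAs took 0.409% ± 0.218 in WT and 0.658% ± 0.813 in AD mice, with a 14.2-fold range. The highest rRNA value was 2.63% in AD replicate 7, and the next AD library stood at 0.672%. Without AD replicate 7 the range of the rRNA was 4.41-fold. Mitochondrial mRNA fragments took 0.263% ± 0.0757 and 0.289% ± 0.160. None of these 3 differences passed the test (exact permutation tests, p = 0.598, 0.620 and 0.765).

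**Figure D3:**
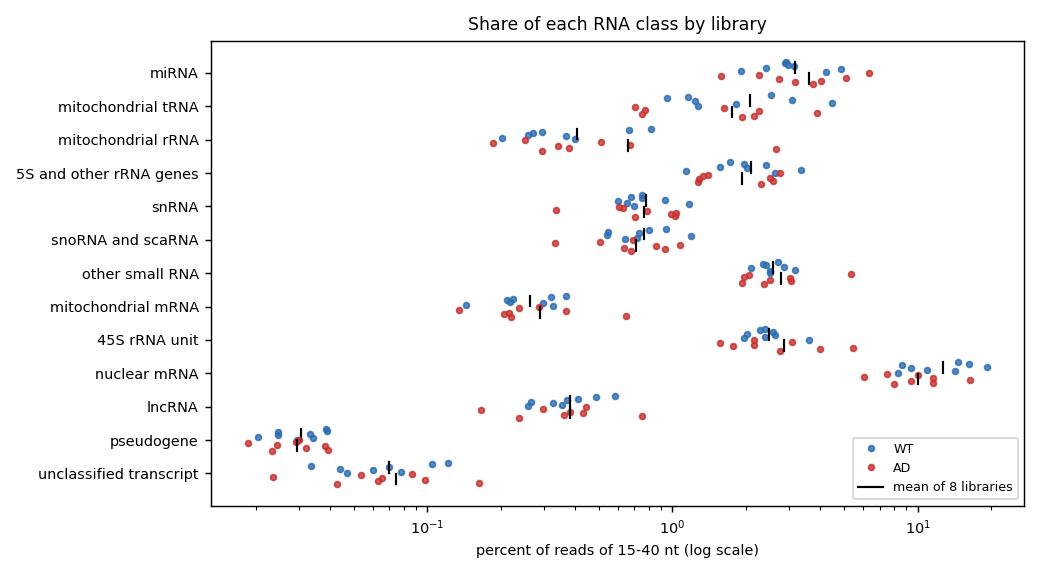
Percentage of all reads of 15 to 40 nt (log axis) that matched genes of each RNA class; each point is a library, blue WT and red AD, and bars are means of 8 libraries. The points of the genotypes overlap in all 13 classes.

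A few sequences made up most of several classes. The most-read mitochondrial tRNA gene was mt-Ts2, a serine tRNA gene (chrM:11613-11671, plus strand), and the 40-nt sequence shown above, its 5′ end up to the length limit, was 95.4% of its reads. mt-Ts2 ranged from 7485 to 40442 RPM in WT libraries (median 13317) and from 4479 to 34875 RPM in AD libraries (median 15488). It held 85.4% of all mitochondrial tRNA reads. Its level and that of the class are therefore nearly the same measurement.

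Rny1, which encodes the Y1 RNA that binds the Ro60 protein (chr6:47788069-47788180, minus strand), held 67.3% of the other small RNA class. Its WT libraries lay between 12915 and 21314 RPM (median 17168), and its AD libraries between 12574 and 31359 RPM (median 17360). The printed 31-nt 5′ fragment was 14.6% of its reads. AD replicate 1 was the highest library of this class, at 5.35% of reads against at most 3.05% in the other AD libraries.

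Among the 5S genes, n-R5s136 took 62.8% of the class, because 99.9% of its reads matched several identical 5S copies and were given to 1 gene. The same rRNA end was found again in a protein gene. Tmem38b, which encodes a cation channel of the endoplasmic reticulum, was the most-read gene of the nuclear mRNA class, with 9219 to 27352 RPM in WT (median 18007) and 10742 to 27340 RPM in AD libraries (median 15742). Of its reads, 99.6% were a run up to the 3′ end of the annotated 5S gene with 1 base added, and its top sequence was the printed n-R5s136 fragment with a T added at the 3′ end. The annotated 5S genes end before that base, so these reads matched only the 5S-like stretch inside Tmem38b. They were 15.96% of the nuclear mRNA class.

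The next most-read protein genes were Lars2 and Jmjd6. Lars2, which encodes the mitochondrial leucyl-tRNA synthetase, ranged from 4888 to 14825 RPM in WT and from 4407 to 26062 RPM in AD libraries. Its 3 most frequent sequences, 20.03% of its reads, are known as stretches of 28S rRNA that the Lars2 transcript also holds, and the source of the other reads was not tested. Its 3 highest libraries, AD replicates 6 and 7 and WT replicate 8, are also the 3 highest for the 45S unit gene Gm42418. Jmjd6 ranged from 110 to 1143 RPM and from 37.1 to 1330 RPM, and 86.8% of its reads were a single 16-nt sequence. Without Tmem38b, Lars2 and Jmjd6, a choice made after the values were seen, the nuclear mRNA share was 9.79% ± 4.59 in WT and 7.19% ± 3.34 in AD mice (SD, n = 8 each, p = 0.215 by exact permutation).

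The 45S rRNA unit was read mainly through Gm42418 (chr17:39846958-39848788, plus strand), which the annotation types as a long noncoding RNA although it lies over the 18S rRNA. It ranged from 15491 to 34894 RPM in WT and from 14437 to 53186 RPM in AD libraries. A further 5714 to 20824 RPM matched CT010467.1, an rRNA-type gene annotated on the minus strand, only in antisense. That single gene held 79.2% of all reads that matched the annotation in antisense alone. Antisense-only matches were 1.42% of reads in the median library, and rose to 10.2% among reads of 15 nt.

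In the other classes the most-read genes were Mirlet7c-1 (let-7c), the mitochondrial 16S rRNA mt-Rnr2, the snRNA gene Gm22513, Gm26202 of the snoRNA and scaRNA class, the cytochrome c oxidase gene mt-Co1, the nuclear lncRNA Malat1, the pseudogene Gm15280 and the transcript AA474408. Mirlet7c-1 ranged from 962 to 4171 RPM in WT libraries (median 2117) and from 1511 to 17659 RPM in AD libraries (median 3174), and 99.9% of its reads matched more than 1 gene. Its highest value came from AD replicate 1, and the next AD library held 5848 RPM. Of the 13 most-read genes, 0 were called in the edgeR test, and the log2 ratio of AD to WT lay between -0.67 and 1.099 (adjusted p from 0.660 to 0.913).

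The lengths of the fragments followed the RNA class. In miRNA genes 88.0% of reads had 18 to 24 nt and 41.4% had 21 nt, whereas 82.4% of mitochondrial tRNA reads had 40 nt and 55.5% of nuclear mRNA reads had 33 to 40 nt. The mean length of miRNA reads was 21.5 ± 0.107 nt in WT and 21.3 ± 0.178 nt in AD mice (SD, n = 8 each, p = 0.0154 and adjusted p = 0.174 by exact permutation). In the other small RNA class it was 32.1 ± 0.451 and 31.4 ± 0.743 nt (exact permutation test, p = 0.0267, adjusted p = 0.174). Neither difference passed the adjustment over 13 classes, and the mean was lower in AD than in WT mice for 12 of the 13 classes. With reads of up to 45 nt kept, the means of 9 classes were lower in AD mice at an adjusted p under 0.05, in the same libraries in which fewer reads of 41 to 45 nt were counted.

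Gene by gene, 16571 genes passed the filter on low counts, of which 5 were higher and 1 was lower in AD mice (edgeR quasi-likelihood test, Benjamini-Hochberg adjusted p under 0.05). These are 0.0302% and 0.00603% of the genes tested, and all 6 also passed 2-fold. At an unadjusted p under 0.05, 183 genes (1.1%) were higher and 344 (2.08%) lower. With TMM scaling, which sets the typical gene equal between libraries, 0 genes were called in either direction, with 1051 (6.34%) higher and 300 (1.81%) lower at an unadjusted p under 0.05. The median log2 ratio of AD to WT over all genes was -0.32 when libraries were scaled by all reads and 0.05 with TMM. A log2 ratio of a single gene is therefore also given relative to that median where the scaling could turn its sign. In the nuclear mRNA class, with 13649 genes, the median was -0.37, against -0.06 over 478 miRNA genes, 0.05 over 341 snoRNA and scaRNA genes and 0.09 over 921 unclassified transcripts. Without the 4 libraries in doubt these 4 medians were -0.38, -0.17, -0.19 and -0.20, all below 0, beside -0.36 over all genes.

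The 5 higher genes were Mir206, Cbln3, Gabra6, Fat2 and Il16. Cbln3 encodes a cerebellin, Gabra6 a GABA receptor subunit and Fat2 a giant cadherin, all of cerebellar granule cells, Il16 has a neuronal form made in cerebellum, and miR-206 is a miRNA best known from muscle that is also made in cerebellum. For each of the 5, AD replicates 1, 6 and 7 held the 3 highest values of the 16 libraries, and these are the libraries with high cerebellar markers. Cbln3, Gabra6 and Fat2 are themselves in that marker list. The part of cerebellar RNA in these calls was not tested.

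Cbln3 (chr14:55878913-55884392, minus strand) stood at 49.7, 13.03 and 7.99 RPM in AD replicates 1, 6 and 7. The other 5 AD libraries held 0.206 to 1.33 RPM and the WT libraries 0.356 to 2.01 RPM (median 0.543). The groups overlapped, and the log2 ratio of AD to WT was 3.65 ± 0.74 (SE, adjusted p = 0.0469).

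Mir206 (chr1:20679010-20679082, plus strand) gave 220, 93.2 and 34.5 RPM in the same 3 libraries. In the WT libraries it ranged from 0.608 to 5.13 RPM, and in the other AD libraries from 0.691 to 3.09 RPM. Its log2 ratio was 4.32 ± 0.83 (SE, adjusted p = 0.0444). All of its reads also matched Gm28653, the lncRNA that contains the hairpin, and were given to the miRNA.

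Gabra6 (chr11:42306437-42321072, minus strand) ranged from 0.0384 to 12.8 RPM in AD (median 0.305) and from 0.0323 to 0.657 RPM in WT libraries (median 0.180), with a log2 ratio of 3.77 ± 0.77. Fat2 (chr11:55250609-55336564, minus strand) ranged from 0.767 to 74.1 RPM in AD (median 2.36) and from 0.727 to 4.64 RPM in WT libraries (median 1.09), with 3.35 ± 0.69. Il16 (chr7:83642825-83745726, minus strand) ranged from 0.345 to 8.90 RPM in AD (median 0.674) and from 0.135 to 0.730 RPM in WT libraries (median 0.342), with 2.64 ± 0.54. All 3 had an adjusted p of 0.0469. En2, a transcription factor gene of the cerebellum and midbrain, did not pass (log2 ratio 3.06 ± 0.65, adjusted p = 0.0601).

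Without AD replicates 1, 6 and 7, a choice made after the values were seen, 0 genes were called, with 49 higher and 147 lower at an unadjusted p under 0.05 (edgeR). Of the 5 log2 ratios, 4 were then below 0, at -0.39 for Mir206, -0.36 for Cbln3, -0.22 for Gabra6 and -0.10 for Fat2, against a median of -0.34 over all genes in that fit. Il16 stood at 0.46 (adjusted p = 0.806). Since the libraries left out hold the highest values of each gene, lower ratios follow from that choice.

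The lower gene was Mir292 (chr7:3219189-3219270, plus strand), a member of the miR-290 to miR-295 cluster of embryonic stem cells. The library labelled WT replicate 1 held 66.4 RPM of it. The other WT libraries held 0.0624 to 1.17 RPM and the AD libraries 0.0403 to 0.786 RPM. The log2 ratio was -5.17 ± 0.99 (SE, adjusted p = 0.0444), and it was not called without that library, whose App reads also go against its label. The 7 genes of the cluster summed to 94.0 RPM there and to at most 1.17 RPM in any other library.

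**Figure D4:**
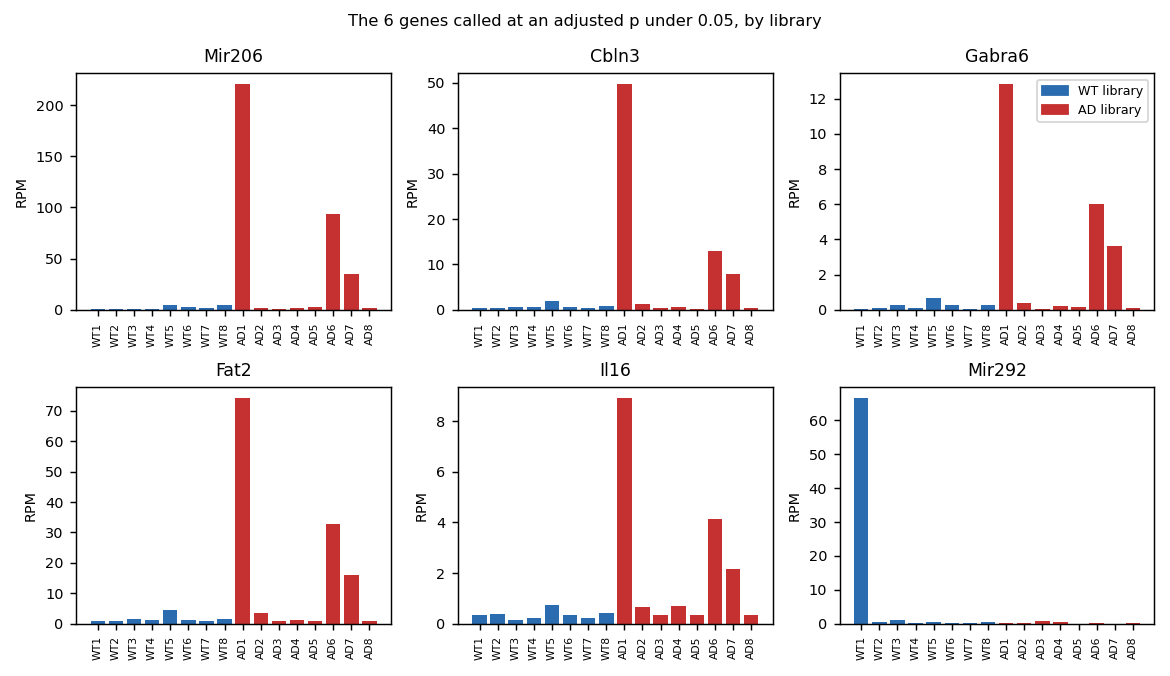
RPM of the 6 called genes in each library, WT in blue and AD in red. The 5 higher genes stand high in AD replicates 1, 6 and 7, and Mir292 in the library labelled WT replicate 1.

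Leaving out 1 library at a time gave 0 to 9 higher and 0 to 2 lower genes. The higher count fell to 0 without any 1 of WT replicates 1, 2, 3, 4, 6 and 7 or AD replicates 1, 3 and 6, and to 1, Mir206, without WT replicate 8. The lower count fell to 0 without WT replicate 1 or 3 or AD replicate 3 or 6. DESeq2 called 2 genes higher, Cd63 and Ttll3, and 0 lower, and the edgeR likelihood ratio test with TMM, the combination that the study's methods name, called Cd63 alone, at less than 2-fold. Cd63, which encodes a tetraspanin of late endosomes and exosomes, ranged from 1.40 to 4.59 RPM in WT (median 2.89) and from 2.29 to 5.92 RPM in AD libraries (median 3.98), and 68.5% of its reads matched more than 1 gene. Cd63 is a member of the plaque-associated glia and lysosome lists described below.

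The gene lists show how the fragments of cell-type mRNAs stood in the same fit. Of 35 tested genes of plaque-associated glia, 0 were called in either direction in that fit with all 16 libraries. Cd63, called in the alternatives named above, is on this list. A log2 ratio above 0 was found for 28, beside 22.8% of all genes tested, and for 34 with TMM, beside 56.2%. Their median was 0.29, beside -0.32 over all genes, and with TMM it was 0.64 beside 0.05. At an unadjusted p under 0.05 with TMM, 15 of the 35 were higher and 0 lower, beside 6.34% and 1.81% of all genes. Gfap, the intermediate filament of reactive astrocytes, ranged from 1.64 to 22.4 RPM in WT (median 2.70) and from 7.92 to 19.9 RPM in AD libraries (median 10.1). The groups overlapped through the 22.4 RPM of the library labelled WT replicate 1, and the other 7 WT libraries held 1.64 to 6.55 RPM. How many genes separate once their highest WT library is set aside was not counted. Its log2 ratio was 1.05 ± 0.44 (SE, adjusted p = 0.660 by edgeR), or 1.38 above the median of all genes.

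Cst7, a cathepsin inhibitor gene of plaque-associated microglia, gave 1.39 RPM in the library labelled WT replicate 1 and 0 to 0.225 RPM in the other WT libraries. AD replicates 2, 3 and 5 held 1.46, 1.55 and 0.892 RPM, and the other AD libraries 0.0563 to 0.358 RPM. The log2 ratio was 1.32 ± 0.68 (SE, adjusted p = 0.660 by edgeR). Gpnmb, a lysosomal glycoprotein gene, and Vim, an intermediate filament gene, had log2 ratios of 0.94 ± 0.48 and 0.73 ± 0.38 (adjusted p = 0.660 for each). Of the 5 libraries with the highest ratios of Thy1 to Snap25, 4 held the 4 highest Cst7 values, and the other, AD replicate 6, held 0.308 RPM.

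With all 16 libraries other glial lists lay on the same side. Of 12 astrocyte genes 10 were above 0, with a median of 0.19 beside -0.32 over all genes. Without the 4 libraries in doubt that median was -0.11 beside -0.36. With TMM and all 16 libraries, 11 astrocyte genes were above 0, beside 56.2% of all genes, with a median of 0.56 beside 0.05. At an unadjusted p under 0.05 in that edgeR fit, 7 of the 12 were higher and 0 lower, beside 6.34% and 1.81% of all genes. The TMM median without the 4 was 0.19 beside -0.01. The water channel gene Aqp4 had a log2 ratio of 0.92 ± 0.41 (adjusted p = 0.660 by edgeR), or 0.47 without the 4, of which AD replicate 7 held the highest value, 16.6 RPM. Summed over the list, astrocyte genes gave 339.7 RPM ± 144 in WT and 307 RPM ± 135.9 in AD libraries (SD, n = 8 each). The plaque-associated list gave 351 RPM ± 109.9 and 337 RPM ± 82.5, so neither sum was higher in AD libraries. Scaled by the same reads, the whole nuclear mRNA class took 12.7% in WT and 10.1% in AD libraries. Of 14 microglial genes 9 were above 0, with a median of 0.19, or 0.38 without the 4. Trem2, a microglial lipid receptor gene, had a log2 ratio of 0.50 ± 0.46, or 1.396 without the 4 (adjusted p = 0.839 by edgeR). The library labelled WT replicate 1, among the 4, held the highest Trem2 value, 0.921 RPM, so a higher ratio follows from leaving it out. C1qa, a complement gene, had 0.49 ± 0.35. Of 16 oligodendrocyte and myelin genes 11 were above 0, with a median of 0.01, or -0.03 without the 4, and Mobp of compact myelin had 0.31 ± 0.37. With TMM 13 of the microglial and 15 of the oligodendrocyte genes were above 0, with medians of 0.55 and 0.49. At an unadjusted p under 0.05 with TMM (edgeR), 3 and 2 of them were higher and 0 lower. None of these genes was called.

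Genes of neurons and synapses had a median below that of all genes. Of 29 tested, 1 was above 0 and the median was -0.61 beside -0.32, or -0.27 beside 0.05 with TMM. It was -0.48 beside -0.36 without the 4 libraries in doubt, or -0.13 beside -0.01 with TMM, so the distance from all genes was smaller. The interneuron peptide genes Sst, Vip and Npy had the lowest p in the list. Sst ranged from 3.06 to 17.8 RPM in WT (median 7.70) and from 0.569 to 10.04 RPM in AD libraries (median 2.83), with a log2 ratio of -1.43 ± 0.44 (SE, adjusted p = 0.660 by edgeR). Vip and Npy had -1.23 ± 0.47 and -1.10 ± 0.44, and the NMDA receptor gene Grin2b had -0.92 ± 0.45. Summed over the list, the level was lowest in AD replicate 1 and highest in WT replicate 4, at 473 and 3407 RPM. The 5 libraries with the highest sums were those with the 5 highest TMM factors, 1.58 to 2.01, and the part of that scaling in the list's values was not tested. Of 19 immediate early genes, which report neuronal activity, 0 were above 0 and the median was -0.48, but with TMM 11 were above 0 and the median was 0.06, close to the 0.05 of all genes. Npas4 and Egr3, the first of them by p, had -1.10 ± 0.45 and -0.96 ± 0.43.

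The median of lysosomal genes changed sign with the scaling, as did that of all genes. Of 44 tested, 12 were above 0, a share near the 22.8% of all genes, and the median was -0.19, beside -0.32 over all genes, and with TMM 32 were above 0, beside 56.2% of all genes, and the median was 0.18, beside 0.05. At an unadjusted p under 0.05 with TMM, 9 of the 44 were higher and 1 lower, beside 6.34% and 1.81% of all genes. The members with the smallest p when libraries were scaled by all reads were lower ones. Gla, an alpha-galactosidase gene, and Gaa, the acid glucosidase gene, had log2 ratios of -0.82 ± 0.39 and -0.74 ± 0.38. Neither was called (adjusted p = 0.660).

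Among vessel genes, 1 library stood apart for Vwf. Of 13 tested, 13 were above 0 and the median was 0.65. Vwf, the von Willebrand factor gene of endothelium, gave 114 RPM in AD replicate 4 and 0.940 to 8.61 RPM in the other 15 libraries, with a log2 ratio of 2.36 ± 0.71 (adjusted p = 0.660). Without that library its log2 ratio was -0.60. Without the 4 libraries in doubt, which include it, the median of the list was -0.18, beside -0.36 over all genes. The smooth muscle genes Acta2 and Myl9 had 1.14 ± 0.40 and 1.21 ± 0.47 with all libraries, and 0.70 and 0.93 without the 4. The 3 highest libraries of both genes were AD replicates 4, 6 and 7. Summed red blood cell genes were also highest in AD replicate 4, at 265 RPM, against at most 90.4 RPM in the other AD libraries.

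The medians of the miRNA lists changed sign with the scaling, as did that over all miRNA genes. Of 10 tested miRNAs linked to inflammation 4 were above 0, with a median of -0.12, and with TMM 8 were above 0, with a median of 0.16. Of 17 neuronal miRNAs 8 were above 0, with a median of -0.06, and with TMM 10 were above 0, with 0.06. Over all miRNA genes the medians were -0.06 and 0.18. The neuronal miRNA median was -0.31 without the 4 libraries in doubt, beside -0.17 over all miRNA genes. Mir34a, which is induced by p53, ranged from 0.472 to 2.84 RPM in WT (median 1.31) and from 0.748 to 3.89 RPM in AD libraries (median 2.83), with a log2 ratio of 0.84 ± 0.38. Mir132, which follows neuronal activity, ranged from 21.03 to 109 RPM in WT (median 38.4) and from 8.33 to 49.4 RPM in AD libraries (median 24.8), with -0.88 ± 0.40. Both had an adjusted p of 0.660 (edgeR quasi-likelihood test). The 13 mitochondrial mRNAs had a median of 0.12, or 0.27 with TMM and -0.31 without the 4 libraries in doubt. The 22 mitochondrial tRNAs had a median of -0.15, or 0.04 with TMM and -0.28 without the 4 libraries. Over all genes the corresponding medians were -0.32, 0.05 and -0.36, and 0 genes of either list were called.

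**Figure D5:**
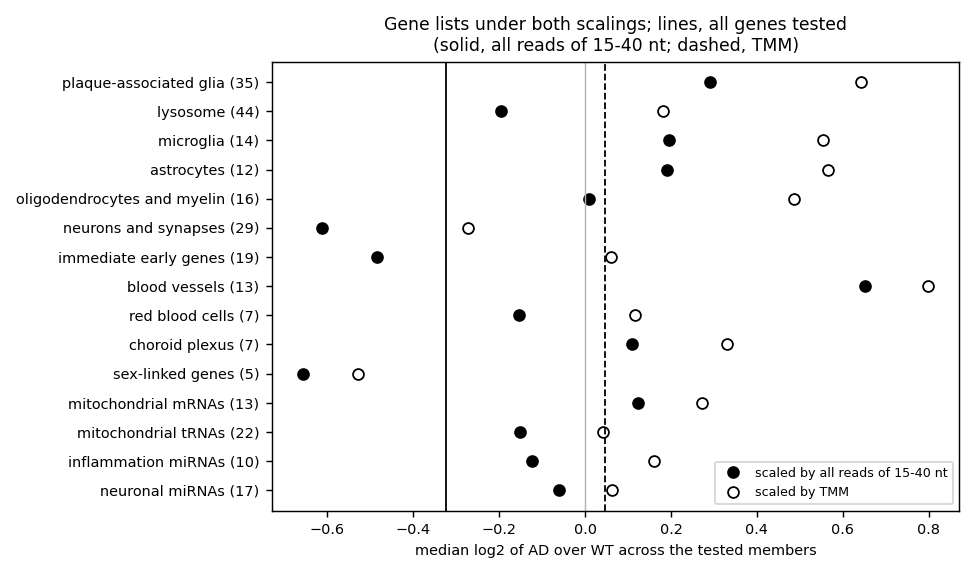
Median log2 ratio of AD to WT over the tested members of each list (number in brackets), scaled by all reads of 15 to 40 nt (filled) or by TMM (open); the vertical lines are the medians over all genes, -0.32 (solid) and 0.05 (dashed). Most lists, the glial and vessel lists among them, lie to the right of the line of their own scaling. The neuronal and sex-linked lists lie to the left under both scalings.

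Transgene reads were matched only to the mouse sequence here. App ranged from 39.5 to 190 RPM in WT and from 36.9 to 182 RPM in AD libraries, with a log2 ratio of -0.55 ± 0.40. Thy1 had 0.30 ± 0.50 (adjusted p = 0.784), or 0.63 above the median of all genes. Reads of Xist, made in females, and of the Y-linked Ddx3y had log2 ratios of 1.39 ± 0.69 and -0.83 ± 0.64. Xist was high in WT replicates 2, 3 and 4 and in AD replicates 1, 2, 3, 4 and 7. These libraries held at least 22.7 RPM of Xist and at most 0.810 RPM of Ddx3y. Every other library held at most 8.49 RPM of Xist and at least 2.39 RPM of Ddx3y. Xist-high libraries were thus more frequent among AD than WT labels, and AD replicates 1, 4 and 7 are among the libraries left out below. No fit included sex, and its part in the results was not tested.

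Without the 4 libraries that the Thy1 to Snap25 ratio puts in doubt, the 7 remaining WT and 5 remaining AD libraries gave 3 higher and 8 lower genes of 16798 tested (0.0179% and 0.0476%). The higher genes were Cst7, Mir211 and Mir206. Of the 6 genes called with all 16 libraries, only Mir206 was also called here. Cst7 had a log2 ratio of 3.42 ± 0.58 (edgeR adjusted p = 0.00118) and was the called gene among 35 tested in the plaque-associated list, whose median was 0.43 beside -0.36 over all genes. Gfap and Itgax, an integrin gene of the same microglia, had 2.004 ± 0.49 and 2.21 ± 0.58 and were not called (adjusted p = 0.0692 and 0.159). Mir206 had 3.08 ± 0.65, with AD replicate 6, its highest library there, kept in. Mir211 had 3.08 ± 0.55. It gave 2.74, 0.988, 0.875, 0.659 and 0.441 RPM in AD replicates 3, 2, 8, 5 and 6 and 0 to 0.297 RPM in the 7 WT libraries. Among the libraries left out, it gave 1.28 RPM in the library labelled WT replicate 1. Its lowest AD values, 0.114, 0.202 and 0.324 RPM, were those of AD replicates 1, 7 and 4, also left out. Thy1, which the choice of libraries used, had 1.5001 ± 0.496. The libraries left out hold the highest WT value of Cst7, 1.39 RPM, and its lowest AD values, 0.0563 to 0.209 RPM. They also hold the highest WT values of Mir211, Gfap and Itgax. Higher ratios of these genes and of Cst7 therefore follow from that choice, and their adjusted p-values are no separate tests of genotype. Since libraries were kept by the Thy1 ratio, with which Cst7 moved, these values describe those 12 libraries.

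The 8 lower genes in that fit were led by the sensory miRNA gene Mir96 and by Mir183, from the same cluster. Mir96 had a log2 ratio of -3.70 ± 0.72. It held 16.96 and 5.99 RPM in WT replicates 2 and 3, the 2 libraries highest in olfactory bulb markers. AD replicate 7, the next highest in those markers and left out of this fit, held 2.76 RPM, and every other library held less. Mir183 had -3.55 ± 0.74. Adora2a, of the striatal list, was called at -2.58 ± 0.58, and Drd2, of the same list, had -2.48 ± 0.59 and was not (edgeR adjusted p = 0.0430 and 0.0653). AD replicates 7 and 4, both left out of this fit, held the 2 highest AD values of Mir96, Mir183, Adora2a and Drd2. For Mir183 these were 31.6 and 12.1 RPM. Lower ratios of these genes therefore follow in part from that choice, and their adjusted p-values are no separate tests of genotype. With TMM in the same 12 libraries, 0 genes were called in either direction by edgeR, with 222 higher and 218 lower at an unadjusted p under 0.05.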

How the data were processed

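Small RNA was sequenced in 16 PANDORA-seq libraries of mouse cortex, 8 WT and 8 AD by label. Per the file headers, the deposited tables list each distinct sequence of 15 to 45 nt with its length and its count of reads, raw and not normalized. The authors processed their reads with the SPORTS pipeline and, per the labels, the mm39 build, but the deposited counts carry no annotation. Each sequence of 15 to 40 nt was matched whole, exactly and in sense to 141767 GENCODE vM21 transcripts (GRCm38) of 55450 genes. Sequences matching several genes went to the small RNA gene first, then to the gene with most unique reads. Nuclear tRNA and 28S rRNA are not annotated there as genes of their own, so such fragments were counted only where another transcript holds the same stretch, as Lars2 does for some 28S rRNA fragments. Genes were sorted into 13 classes by gene type. Counts were fitted with the edgeR 4.0.16 quasi-likelihood test (R 4.3.3) with all reads of 15 to 40 nt as library size and filterByExpr. DESeq2 1.42.0 was an alternative. SE is the log2 ratio divided by the root of F. Class shares and mean lengths were compared by two-sided exact permutation tests over 12870 splits. The scripts were tested on simulated data.

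Genes were named by rule: up to 12 called genes in each direction, the most-read gene of each class, App and Thy1, and up to 4 members of each list with the smallest p. Ttll3, Cd63, En2, Itgax, Mir211, Mir96, Mir183, Adora2a, Drd2, Lars2, Jmjd6, the comparison genes and the brain region lists were chosen after their values were seen. The members and lists were chosen with earlier results of these data known. The text describes only part of the genes that the rule names. The 14 traditional-seq libraries were not used here.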

Additional observations from a re-analysis of the deposited data

Results flagged for a closer look

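A library was singled out where its gap to the nearest of the other libraries of its genotype passed Dixon's critical value for 8 samples. Of 168 groups of 8 libraries tested, 59 held such a library. Chance gives about 1 in 20, but many of these genes and lists were chosen after single libraries had been seen to stand out, and RPM are skewed upwards, so the number cannot be read against that share. No explanation was tested for these values.

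AD replicate 7 held 13763 RPM of mt-Rnr2, 2576 RPM of mt-Co1, 1933 RPM of Malat1, 16.6 RPM of Aqp4, 234 RPM of Xist, 2.76 RPM of Mir96 and 31.6 RPM of Mir183. Its summed lists gave 254 RPM for the sex-linked genes list, 84.8 RPM for the striatum list and 148 RPM for the olfactory bulb list. In AD replicate 7, 2.63% of reads came from the mitochondrial rRNA class, 0.647% of reads came from the mitochondrial mRNA class and 0.753% of reads came from the lncRNA class.

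AD replicate 1 held 220 RPM of Mir206, 49.7 RPM of Cbln3, 12.8 RPM of Gabra6, 74.1 RPM of Fat2, 8.90 RPM of Il16, 17659 RPM of Mirlet7c-1 and 7.00 RPM of En2. Over whole lists it held 270 RPM for the cerebellum list. In AD replicate 1, 5.35% of reads came from the other small RNA class.

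In WT replicate 8, 3.61% of reads came from the 45S rRNA unit class.

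WT replicate 5 held 2.01 RPM of Cbln3, 0.657 RPM of Gabra6, 4.64 RPM of Fat2, 0.730 RPM of Il16 and 0.450 RPM of En2.

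The library labelled WT replicate 1 held 66.4 RPM of Mir292, 364 RPM of Thy1, 22.4 RPM of Gfap, 1.39 RPM of Cst7, 0.921 RPM of Trem2, 2.84 RPM of C1qa and 1.05 RPM of Itgax. Marker sums there were 42.5 RPM for the microglia list and 94.0 RPM for the Mir290 cluster list. Of its near-matching reads, 45.1% at App carried 1 or 2 mismatches.

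AD replicate 3 held 0.786 RPM of Mir292. Its summed lists gave 0.786 RPM for the Mir290 cluster list.

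AD replicate 5 held 34874 RPM of mt-Ts2, 182 RPM of App, 1.81 RPM of Gla, 10.04 RPM of Sst, 3.88 RPM of Npy and 12.2 RPM of Ddx3y. Over whole lists it held 843 RPM for the lysosome list, 2870 RPM for the neurons and synapses list and 328 RPM for the cortical projection neurons list.

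WT replicate 6 held 24839 RPM of n-R5s136 and 8.61 RPM of Vwf.

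AD replicate 4 held 114 RPM of Vwf. Marker sums there were 185 RPM for the blood vessels list and 265 RPM for the red blood cells list.

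WT replicate 2 held 106 RPM of Xist, 16.96 RPM of Mir96 and 209 RPM of Mir183. Its summed lists gave 111 RPM for the sex-linked genes list and 908 RPM for the olfactory bulb list.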

How the results depend on the processing

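The counts of called genes depended on the scaling and on single libraries. Against 5 higher and 1 lower, there were 0 and 0 with TMM, with matched reads as library size, with DESeq2 size factors, with the robust fit, with reads of 15 to 32 nt, with each length scaled by its own total and without the 3 cerebellum-high libraries. DESeq2 gave 2 and 0, the likelihood ratio test with TMM 1 and 0, a filter of 10 reads over all libraries 21 and 8, 10 reads in every library of 1 genotype 4 and 0, and reads of 15 to 45 nt 8 and 20. Without the 4 libraries in doubt there were 3 and 8, or 0 and 0 with TMM. Leaving out 1 library gave 0 to 9 and 0 to 2. With reads matching more than 1 gene left out there were 5 and 1, with En2 called in place of Mir206. With the replicate number as a block there were 0 and 0. Same-numbered libraries deviated with correlations of -0.35 to 0.52, 3 of 8 over 0.1, and 0 of 8 correlated best with its own number. Pairing by number was therefore not assumed, and whether such libraries share a litter or batch was not tested. The causes of these changes were not tested.

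Differences of AD minus WT in class shares, none past the threshold with all libraries, changed sign as follows, in percentage points except on the log2 scale: snRNA 0.0380 and pseudogene 0.00319 as shares of matched reads, snRNA 0.0469, snoRNA 0.0326, lncRNA -0.00286 and pseudogene 0.00136 at 15 to 32 nt, snRNA 0.00480 at 15 to 45 nt, and lncRNA -0.0734 on the log2 scale. Without the 4 libraries they were miRNA -0.342, mitochondrial rRNA -0.00826, other small RNA -0.161, mitochondrial mRNA -0.0462, lncRNA -0.0558 and unclassified -0.00622. Leaving out 1 library gave pseudogene -0.00257 to 0.000412, unclassified -0.00795 to 0.0119, snRNA -0.0538 to 0.0457, lncRNA -0.0518 to 0.0320, mitochondrial tRNA -0.613 to 0.0352, 5S -0.307 to 0.00973, snoRNA -0.103 to 0.00913, other small RNA -0.157 to 0.334, mitochondrial rRNA -0.0328 to 0.317 and mitochondrial mRNA -0.0256 to 0.0476.

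With reads of 15 to 45 nt, mean lengths in AD minus WT passed the threshold at -0.417 nt for miRNA, -2.99 for mitochondrial rRNA, -1.63 for 5S, -2.22 for snoRNA, -0.969 for other small RNA, -1.79 for mitochondrial mRNA, -2.88 for 45S, -1.86 for nuclear mRNA and -1.48 for unclassified transcripts. lncRNA turned to -0.913, and to -0.253 at 18 to 40 nt. Leaving out 1 library gave -0.208 to 0.150 nt for unclassified, -0.460 to 0.645 for lncRNA and -1.38 to 0.236 for snRNA.

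Among genes whose log2 ratio with all libraries is printed, those that changed sign were Vwf (-0.50 with DESeq2, -0.0600 with the block, -0.87 without the 4 libraries and -0.72 with TMM there), Mobp (-0.0255), Xist (-0.44) and Ddx3y (0.0429) without the 4 libraries, and, without the 3 cerebellum-high libraries, Mir206 (-0.39), Cbln3 (-0.36), Gabra6 (-0.22), Fat2 (-0.10) and En2 (-0.10). Of the most-read genes, mt-Rnr2, Malat1 and mt-Co1 turned to -0.12, -0.09 and -0.27 without the 4 libraries, Tmem38b and n-R5s136 to 0.06 and 0.16 with TMM, and mt-Ts2, mt-Co1, Tmem38b and n-R5s136 to 0.05, -0.03, 0.05 and 0.0043 without the 4 libraries with TMM. Leaving out 1 library gave -0.13 to 1.04 for Thy1 and -0.60 to 2.77 for Vwf.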
